A study of Coccomyxa subellipsoidea C-169 with 6 samples.

Results

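Starch and storage glucan genes of the single-celled green alga Coccomyxa subellipsoidea C-169 were examined by RNA-seq, taking every listed gene whose protein name points to starch, glycogen or alpha-glucan enzymes, amylases, phosphorylases, glucose-1-phosphate enzymes, sucrose or trehalose. Names of kinases, transporters and nucleoside phosphorylases were left out. The rule itself uses protein names and no measured values, but it was set with earlier results of these data known. The rule found 38 of the 9490 genes in the files. By protein name, 10 act in starch synthesis, 9 in breakdown, 1 is an isoamylase-type debranching enzyme that can serve either, and 6 handle sucrose or trehalose. A further 5 carry only the shared fold-family name UDP-glycosyltransferase/glycogen phosphorylase, and 7 have other roles. The name search also let in enzymes outside the topic: UMP, nicotinate-nucleotide and thiamine-phosphate pyrophosphorylases are nucleotide, NAD and thiamine enzymes and were kept under other roles, as the rule asks.

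The 6 libraries came from 3 cultures labelled CsubMADS1 OX, given as an overexpressor of that gene (OX-labelled), and 3 wild-type (WT) cultures, called biological replicates. All were in stationary phase and were harvested 3 hours before the dark phase. The sources used here do not give the construct's promoter or how many transformed lines were used, so features of a single line and effects of the labelled gene cannot be told apart. In bulk RNA of cultures, fewer cells with a transcript and less of it per cell cannot be told apart.

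Starch is the storage glucan of green algae and plants and is made in the plastid. ADP-glucose pyrophosphorylase, an enzyme of large and small subunits also named glucose-1-phosphate adenylyltransferase, makes the ADP-glucose that starch synthases add to growing chains, and branching enzymes create the branch points. Isoamylase-type enzymes trim misplaced branches so that granules can form and also open branches during breakdown. Amylases, glucan phosphorylases and 4-alpha-glucanotransferases (disproportionating enzymes) release and rework sugars from the granule, in plants mainly in the dark.

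Total counts per library ran from 3862791 to 5336375 in the OX-labelled group and from 3771499 to 4953851 in WT, and the 38 genes took 0.545% to 0.633% of counts in OX-labelled libraries and 0.521% to 0.547% in WT libraries. Levels are CPM, read counts set against the library's total after TMM scaling, and a count of 3 corresponded to 0.588 to 0.759 CPM. The single gene with a MADS-box protein name, COCSUDRAFT_67545, held 68.5, 59.0 and 54.8 CPM in OX-labelled libraries, against 95.3, 80.2 and 84.96 CPM in WT. That this gene is CsubMADS1 rests on its protein name alone. If it is, its direction went against the label without passing (edgeR adjusted p = 0.0535). Every direction below is therefore that of the labels. OX-labelled replicate 3 stood apart from the other libraries of its group on the second principal component (-34.9, against 14.2 and 20.6, on an axis that held 19.6% of the variance).

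All 38 genes passed the filter on low counts. In the OX-labelled cultures 8 rose and 2 fell, and 28 did not pass an adjusted p of 0.05 in edgeR's quasi-likelihood test. These were 21.1% higher and 5.26% lower, where 15.6% of all 8575 tested genes were higher, 8.98% lower and 24.6% called either way. The counts were thus near the background. The median log2 fold change was 0.08 over the 38 genes and -0.00 over all tested genes. Scaled by library size only, the higher share of calls over all genes was 53.4% (1140 higher, 995 lower) in place of 63.5% (1337 higher, 770 lower). The groups did not overlap for 19 of the 38 genes, 12 with the OX-labelled libraries above and 7 below, where 42.9% of all tested genes did not overlap (23.1% above and 19.8% below). The counts mostly moved in the direction of those of all genes when a library was left out. Without OX-labelled replicate 3, 9 of the set were higher and 4 lower, beside 1627 and 1232 of all genes. Without OX-labelled replicate 1, WT replicate 1 or WT replicate 3, 5 of the set were higher and 0 lower, beside 997 and 414, 737 and 313, and 865 and 385 of all genes. Without WT replicate 2, 4 of the set were higher and 3 lower, beside 875 and 414 of all genes. There the lower calls increased in the set and decreased over all genes.

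**Figure D1:**
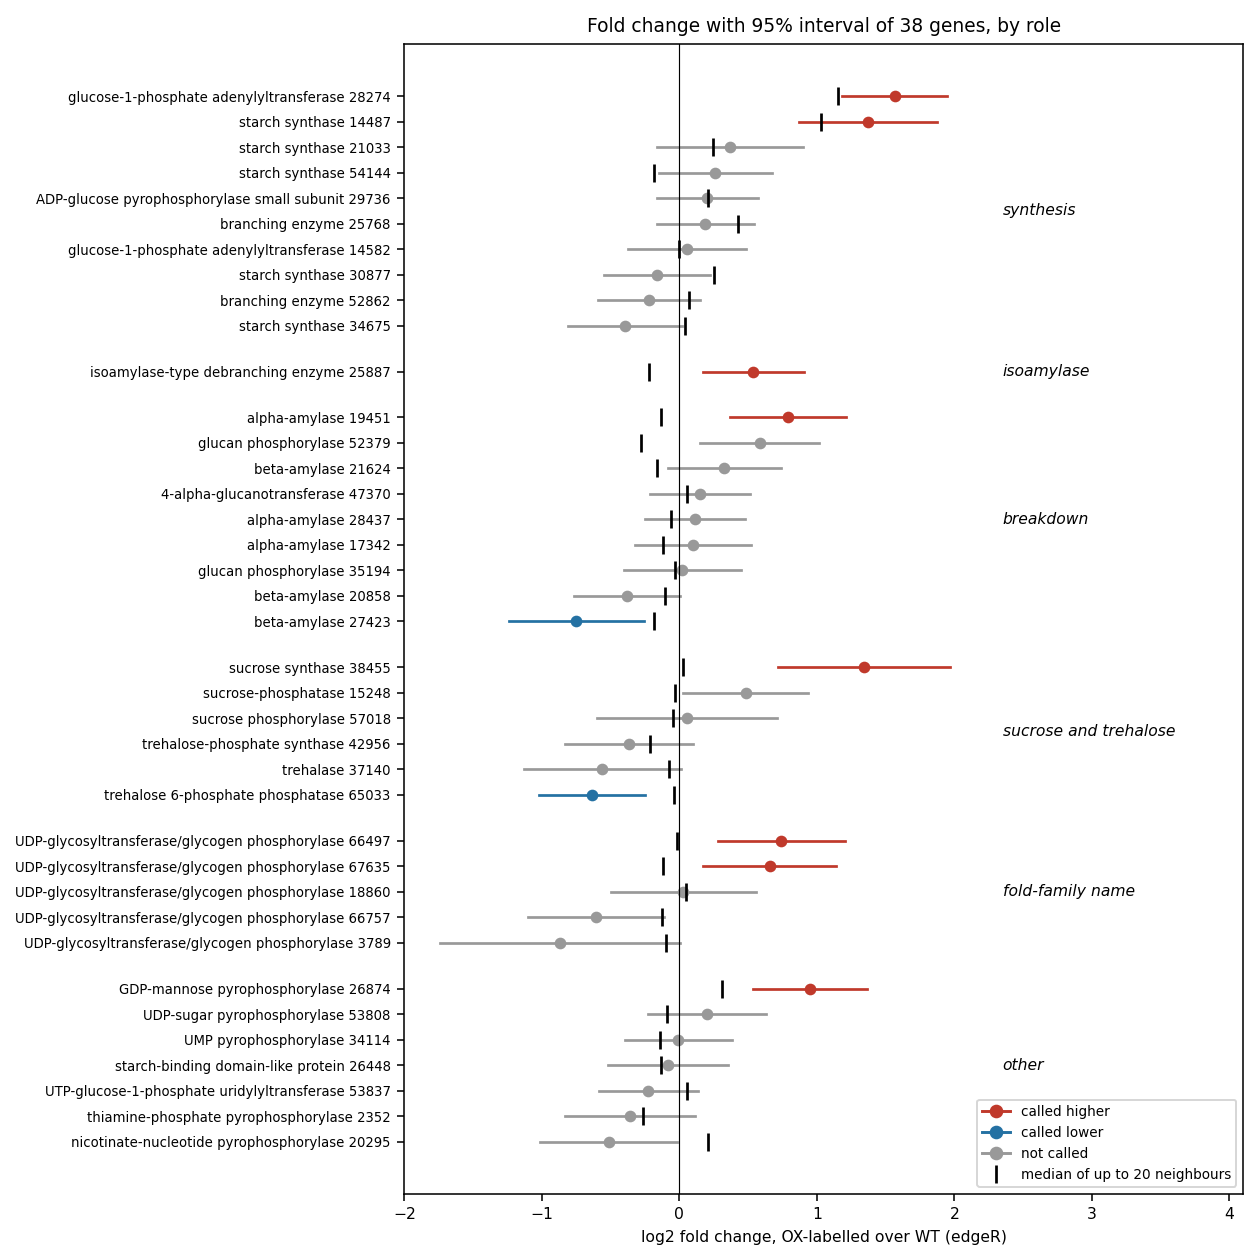
Log2 fold change (OX-labelled over WT, horizontal axis) of each of the 38 genes with its 95% interval from edgeR, grouped by role, with the final digits of the gene identifier beside each name. Red marks the 8 genes called higher, blue the 2 called lower and grey the 28 not called, and black ticks show the median log2 fold change of up to 20 tested neighbours in the genome, which stands above 1 for the top 2 synthesis genes.

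Of the 10 synthesis genes 2 (20%) rose and 0 fell, where 15.6% of all tested genes were higher and 8.98% lower. Those 2 were the largest rises of the set. Glucose-1-phosphate adenylyltransferase COCSUDRAFT_28274, which makes ADP-glucose, held 391, 399.9 and 469 CPM in the OX-labelled libraries, against 132, 139 and 155 CPM in WT. All 3 OX-labelled libraries lay far above the WT libraries, which were close together. The rise was 2.96-fold (log2 fold change 1.56, SE 0.18, edgeR adjusted p = 0.000155). It passed in all 14 other settings, with edgeR adjusted p up to 0.00367 when a library was left out.

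Starch synthase COCSUDRAFT_14487, which lengthens glucan chains, held 40.2, 34.3 and 56.6 CPM in the OX-labelled libraries, against 17.1, 16.0 and 17.4 CPM in WT. Again no OX-labelled library reached down to the WT range, although the OX-labelled libraries spread more widely. The rise was 2.59-fold (log2 fold change 1.37, SE 0.23, edgeR adjusted p = 0.00151) and passed in all 14 other settings.

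No other member of either enzyme family passed the test. The second glucose-1-phosphate adenylyltransferase, COCSUDRAFT_14582, held 170.1, 178 and 254 CPM in OX-labelled libraries and 193, 177 and 209 CPM in WT. Those groups overlapped, and the 95% interval of the fold ran from 0.774 to 1.396. The small subunit COCSUDRAFT_29736 held 281, 319 and 258 CPM in OX-labelled libraries and 244, 249 and 252 CPM in WT. Its groups did not overlap, but the log2 fold change of 0.20 did not pass (edgeR adjusted p = 0.40). Its span overlaps 1 other annotated gene, and the strand setting of the counting is unknown.

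Among the other 4 starch synthases none passed. COCSUDRAFT_30877, with the highest level per kilobase of the family, held 206, 181 and 245 CPM in OX-labelled libraries and 243, 220.5 and 245 CPM in WT. COCSUDRAFT_34675 was below WT in every OX-labelled library, at 35.9, 42.4 and 50.5 CPM against 57.7, 53.3 and 57.9 CPM in WT, without passing (log2 fold change -0.39, SE 0.19, edgeR adjusted p = 0.151). Without OX-labelled replicate 3, its highest library of that group, this synthase did pass (log2 fold change -0.53, edgeR adjusted p = 0.0413), and without OX-labelled replicate 1, the lowest, it had -0.28 (edgeR adjusted p = 0.364). COCSUDRAFT_21033 and COCSUDRAFT_54144 had log2 fold changes of 0.37 and 0.26 (edgeR adjusted p = 0.292 and 0.334). The 0 falls among synthesis genes were also 0 at an unadjusted p of 0.05 in edgeR, in DESeq2 and in limma-voom.

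Neither of the branching enzymes, which set the branch points, passed. COCSUDRAFT_25768, the more abundant of the pair, held 516, 523 and 488 CPM in OX-labelled libraries and 453, 450.5 and 438 CPM in WT, a fold of 1.14 with a 95% interval of 0.892 to 1.45. COCSUDRAFT_52862 held 77.5, 73.5 and 82.0 CPM in OX-labelled libraries and 100.2, 83.8 and 87.5 CPM in WT, a fold of 0.858 with an interval of 0.663 to 1.11. For each gene the OX-labelled and WT libraries were separated, in opposite directions.

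**Figure D2:**
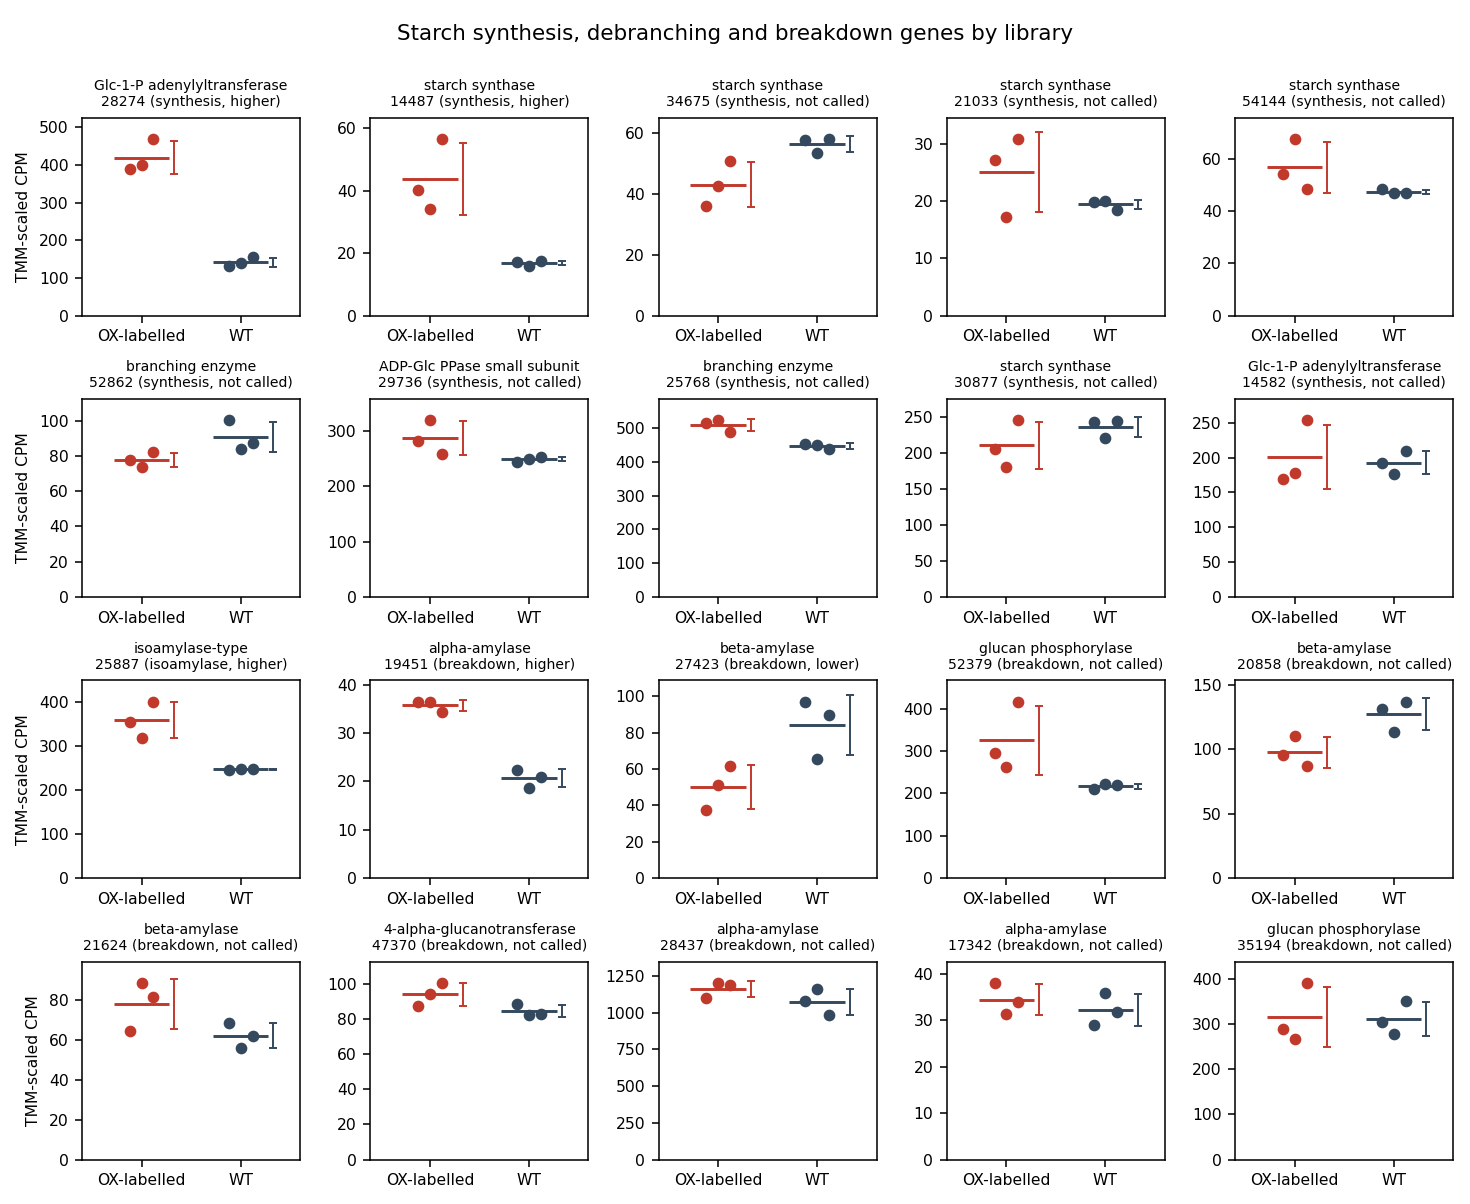
TMM-scaled CPM (vertical axis, from 0) of the 20 synthesis, isoamylase-type and breakdown genes in each OX-labelled (red) and WT (dark) library, with group means as lines and SD as bars (n = 3). In fold terms the separation of these 20 is widest for adenylyltransferase COCSUDRAFT_28274 and starch synthase COCSUDRAFT_14487. The OX-labelled libraries lie all above WT in 8 panels and all below in 4, and the groups overlap in the other 8. Over all tested genes 42.9% did not overlap, 23.1% above and 19.8% below.

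The 2 synthesis genes that rose lie on the same scaffold of the RefSeq assembly, in a stretch where most tested genes were called higher too. Starch synthase COCSUDRAFT_14487 is the 123rd and adenylyltransferase COCSUDRAFT_28274 the 232nd of 531 tested genes in scaffold order. The running median of log2 fold change over 21 tested genes was 0.53 or more from the 11th to the 348th gene. From the 349th to the 521st gene it was 0.24 or less. The 20 tested neighbours of adenylyltransferase COCSUDRAFT_28274, 10 on each side, had a median log2 fold change of 1.16, and 14 were called higher and 0 lower. Those of the starch synthase had a median of 1.03, with 16 higher and 0 lower. Of the 107 tested genes between both, glucokinase left out, 85 (79.4%) were higher and 0 lower, with a median log2 fold change of 1.16. Their median difference from the WT mean, on log2(CPM + 1), was 1.06, 1.03 and 1.14 in OX-labelled replicates 1 to 3.

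The genes exceeded their neighbours' median by 0.41 (adenylyltransferase COCSUDRAFT_28274) and 0.34 (starch synthase COCSUDRAFT_14487) on the log2 scale. The SEs of their own log2 fold changes were 0.18 and 0.23, and these differences were not tested. The other 8 synthesis genes had neighbour medians from -0.19 to 0.43, and none of them was called. The 8 other called genes of the set had neighbour medians from -0.22 to 0.31. Alpha-amylase COCSUDRAFT_28437, the 496th gene of the same scaffold, lies past the end of the raised stretch. Its neighbours had a median of -0.06, with 2 higher and 2 lower, and its own log2 fold change was 0.11 (SE 0.17). The part that the raised stretch has in the rise of either synthesis gene was not tested.

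**Figure D3:**
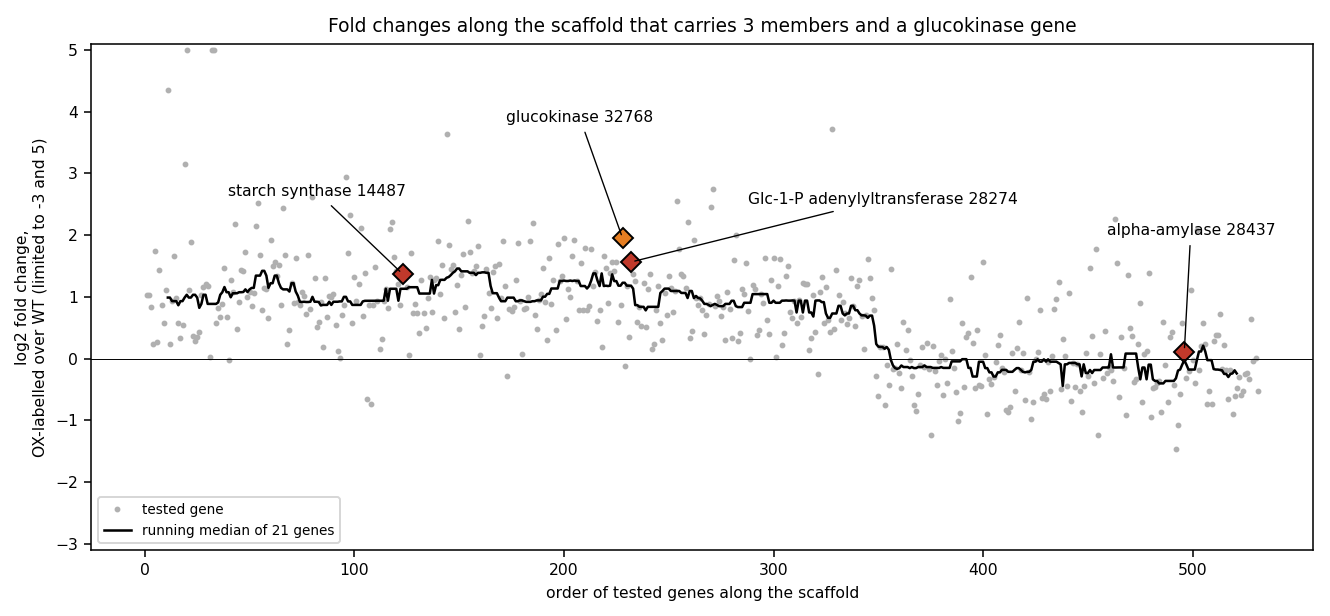
Log2 fold change (OX-labelled over WT, vertical axis, with points beyond the axis drawn at its limit) of the 531 tested genes of 1 scaffold in gene order (horizontal axis), with a running median of 21 genes as a black line. The running median lies near 1 around starch synthase COCSUDRAFT_14487, glucokinase COCSUDRAFT_32768 and adenylyltransferase COCSUDRAFT_28274, and near 0 around alpha-amylase COCSUDRAFT_28437.

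Within the ADP-glucose pyrophosphorylase family the shares of the genes did not overlap between the groups, a description without a test. Per kilobase of gene span, introns included, adenylyltransferase COCSUDRAFT_28274 was 52.2%, 50.5% and 52.8% of the summed level of the 3 genes in OX-labelled libraries, against 27.2%, 29.0% and 29.4% in WT. In WT the mean shares were 35.2% for the small subunit COCSUDRAFT_29736, 36.3% for COCSUDRAFT_14582 and 28.5% for COCSUDRAFT_28274. In OX-labelled libraries those mean shares were 25.1%, 23.1% and 51.8%.

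Among starch synthases, COCSUDRAFT_14487 made up 9.12%, 8.40% and 10.7% of the level per kilobase in OX-labelled libraries, against 3.54%, 3.61% and 3.61% in WT. COCSUDRAFT_30877 remained the main transcript of that family, with a mean share of 67.6% in OX-labelled libraries and 74.0% in WT. The summed level of the 5 synthases was nearly level between groups, at 379 ± 46.8 CPM in OX-labelled libraries and 376 ± 16.8 CPM in WT (SD, n = 3). The sources used here do not say how reads matching several family members were treated.

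**Figure D4:**
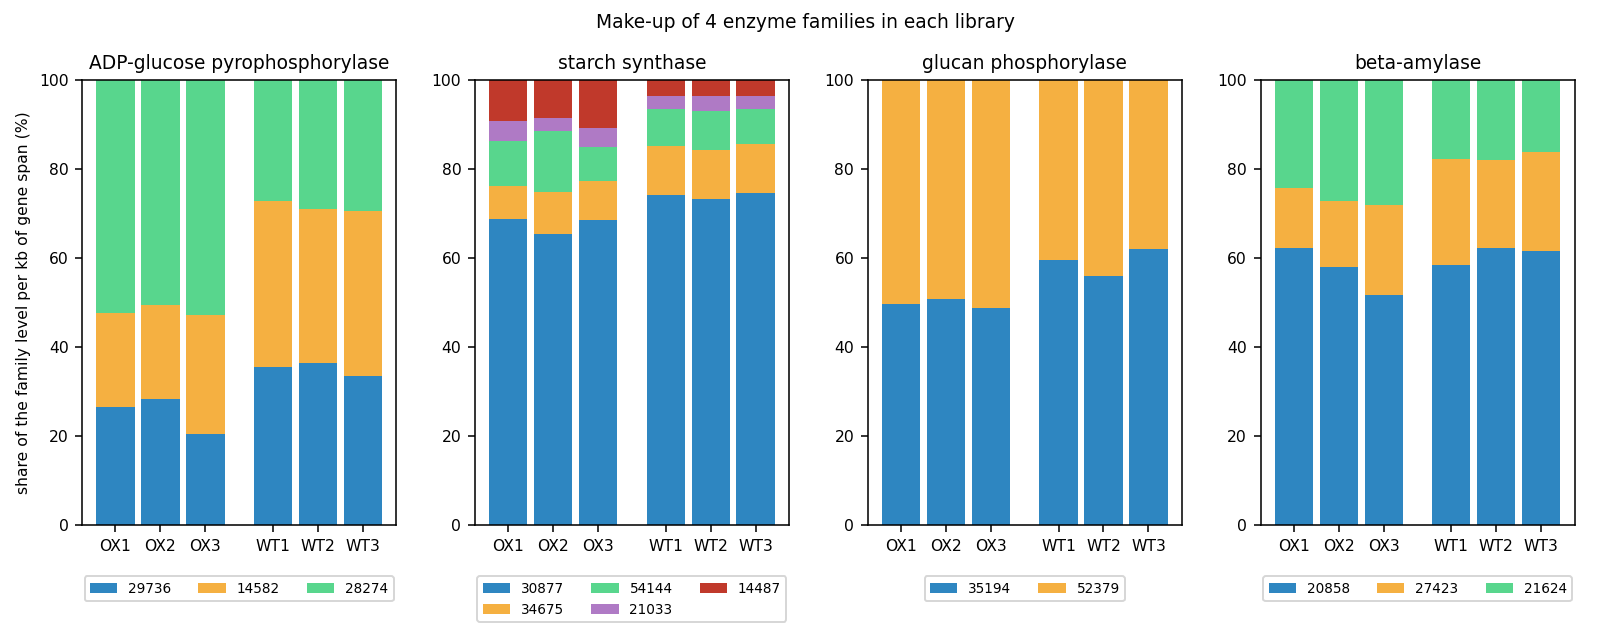
Share (percent, vertical axis) of each gene in the summed level per kilobase of gene span of its family, in each OX-labelled library (OX1 to OX3) and each WT library (WT1 to WT3). Adenylyltransferase COCSUDRAFT_28274 takes 50.5% to 52.8% of its family in OX-labelled libraries and 27.2% to 29.4% in WT.

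The isoamylase-type debranching gene COCSUDRAFT_25887 held 356, 319 and 401 CPM in OX-labelled libraries, against 246, 248 and 247 CPM in WT. The WT libraries were almost equal and all OX-labelled libraries lay above them. It rose 1.45-fold (log2 fold change 0.54, SE 0.17, edgeR adjusted p = 0.0376), while its neighbours had a median log2 fold change of -0.22. The edgeR call was lost with library size only as scaling (adjusted p = 0.0621) and without a filter on low counts (adjusted p = 0.0517). It was also lost without OX-labelled replicate 1 (edgeR adjusted p = 0.0719) and without WT replicates 1, 2 or 3 (edgeR adjusted p = 0.157, 0.142 and 0.13).

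Of the 9 breakdown genes 1 (11.1%) rose, 1 (11.1%) fell and 7 did not pass, beside 15.6% higher and 8.98% lower of all tested genes. The most abundant gene of the whole set, per kilobase of gene span as well, was alpha-amylase COCSUDRAFT_28437, an enzyme that cuts inside glucan chains. It held 1099, 1202 and 1185 CPM in OX-labelled libraries and 1077, 1163 and 982 CPM in WT. These ranges overlapped, and the 95% interval of the fold was 0.840 to 1.39. Per kilobase of span its mean level was 221 CPM in OX-labelled libraries and 205 CPM in WT, ahead of adenylyltransferase COCSUDRAFT_28274 with 146 CPM in OX-labelled libraries and of starch synthase COCSUDRAFT_30877 with 71.1 CPM in WT among the synthesis genes. Among the 3 genes named alpha-amylase it held a mean of 89.8% of the level per kilobase in OX-labelled libraries and 91.6% in WT. That share leaves out COCSUDRAFT_47893 and COCSUDRAFT_83531, which carry the same enzyme number under another name. They held means of 31.5 and 11.3 CPM per kilobase in OX-labelled libraries and 31.1 and 17.4 in WT.

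A minor alpha-amylase, COCSUDRAFT_19451, held 36.5, 36.3 and 34.4 CPM in OX-labelled libraries, against 22.3, 18.7 and 20.99 CPM in WT. Both groups were tight and clearly separated. It rose 1.73-fold (log2 fold change 0.79, SE 0.19, edgeR adjusted p = 0.012), with a neighbour median of -0.13. The call was lost without WT replicate 2 (edgeR adjusted p = 0.0807) and without WT replicate 3 (edgeR adjusted p = 0.0501). The last of the 3 genes with the name alpha-amylase, COCSUDRAFT_17342, held 31.4 to 38.1 CPM in OX-labelled libraries and 29.0 to 35.8 CPM in WT.

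Beta-amylases release maltose from chain ends. Of the 3 genes, COCSUDRAFT_27423 held 37.7, 51.1 and 61.6 CPM in OX-labelled libraries, against 96.9, 65.5 and 89.8 CPM in WT. The highest OX-labelled library came close to the lowest WT library without reaching it. It fell to 0.595 of the WT level (log2 fold change -0.75, SE 0.23, edgeR adjusted p = 0.031). This call was lost without OX-labelled replicates 1 or 2 (edgeR adjusted p = 0.117 and 0.0533) and without WT replicates 1 or 3 (edgeR adjusted p = 0.12 and 0.091).

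The other beta-amylases did not pass and pointed in opposite directions. COCSUDRAFT_20858 held 95.7, 110.3 and 86.7 CPM in OX-labelled libraries and 131, 113 and 137 CPM in WT (log2 fold change -0.38, SE 0.18, edgeR adjusted p = 0.138). COCSUDRAFT_21624, listed as a fragment, held 64.3, 88.5 and 81.5 CPM in OX-labelled libraries and 68.6, 56.0 and 62.0 CPM in WT (log2 fold change 0.33). The summed level of the family was 226 ± 26.3 CPM in OX-labelled libraries and 273 ± 33.7 CPM in WT (SD, n = 3), with overlapping libraries.

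Glucan phosphorylases release glucose 1-phosphate from chain ends. COCSUDRAFT_52379 held 296, 262 and 416 CPM in OX-labelled libraries, against 211, 221 and 219 CPM in WT. The groups did not overlap, and OX-labelled replicate 3 was the highest library. The log2 fold change of 0.58 (SE 0.20) just missed the threshold (edgeR adjusted p = 0.0503). It passed without OX-labelled replicate 2 (edgeR adjusted p = 0.0267) and in the DESeq2 Wald test (adjusted p = 0.0361), and was 0.36 without OX-labelled replicate 3. The second phosphorylase, COCSUDRAFT_35194, held 288, 268 and 391 CPM in OX-labelled libraries and 305, 278 and 351 CPM in WT, with a log2 fold change of 0.02. Its sign was negative with library size only as scaling (-0.04).

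The single 4-alpha-glucanotransferase the rule found, COCSUDRAFT_47370, held 87.3 to 100.3 CPM in OX-labelled libraries and 82.3 to 88.5 CPM in WT (95% interval of the fold 0.864 to 1.43). The starch-binding domain-like gene COCSUDRAFT_26448, listed under other roles, held 74.7 to 112 CPM in OX-labelled libraries and 81.9 to 106 CPM in WT.

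Summed over the 10 synthesis genes, the level was 1799, 1836 and 1983 CPM in OX-labelled libraries, against 1507, 1456 and 1528 CPM in WT, a ratio of means of 1.25. Without starch synthase COCSUDRAFT_14487 and adenylyltransferase COCSUDRAFT_28274 the sum was 1368, 1402 and 1457 CPM in OX-labelled libraries and 1359, 1301 and 1355 CPM in WT, a ratio of 1.05. Summed over the 9 breakdown genes it was 2042, 2144 and 2391 CPM in OX-labelled libraries and 2029, 2034 and 1976 CPM in WT, a ratio of 1.09. The synthesis sum per kilobase was 1.14, 1.10 and 1.14 times the breakdown sum in OX-labelled libraries and 0.914, 0.880 and 0.970 times in WT. In CPM it was 0.881, 0.856 and 0.829 times in OX-labelled libraries and 0.743, 0.716 and 0.773 times in WT. For these genes, which sum was the larger in OX-labelled libraries thus depended on the scaling by length. The mean sums per kilobase there were 468 CPM for synthesis and 416 CPM for breakdown. The breakdown sum leaves out amylomaltase COCSUDRAFT_28856 and glucanohydrolases COCSUDRAFT_47893 and COCSUDRAFT_83531, which the rule misses. Their means were 25.0, 31.5 and 11.3 CPM per kilobase in OX-labelled libraries and 24.5, 31.1 and 17.4 in WT. The order per kilobase therefore holds for the name-matched genes only. These sums are descriptions of single libraries, and most of the difference in the synthesis sum came from the 2 genes of the raised stretch.

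**Figure D5:**
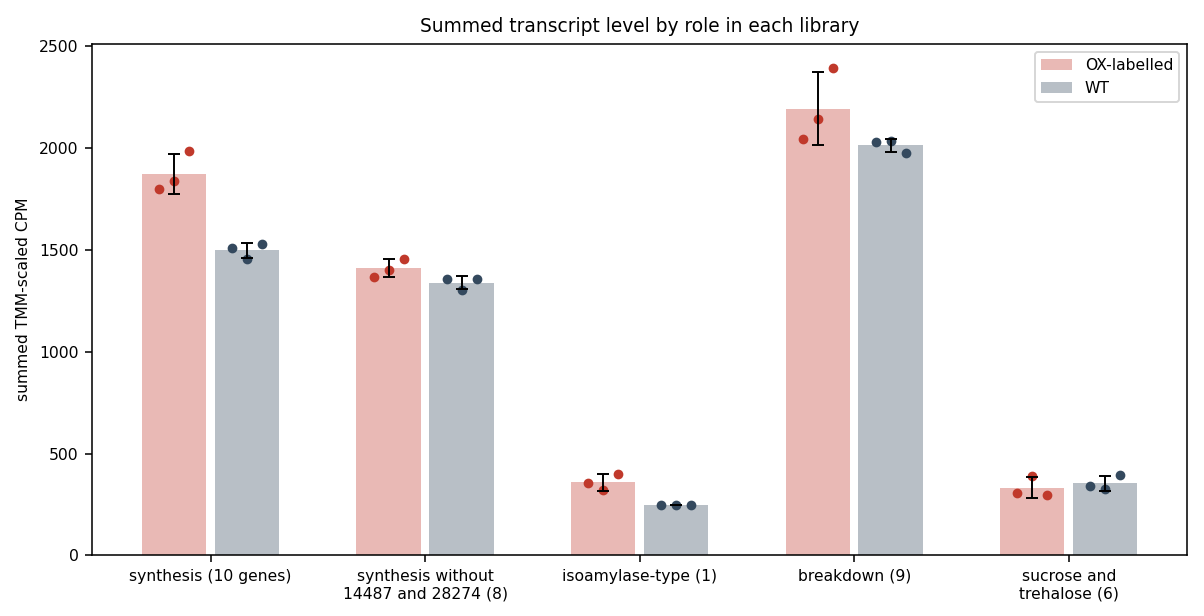
Summed TMM-scaled CPM (vertical axis, from 0) of synthesis, isoamylase-type, breakdown and sucrose or trehalose genes, with points for single libraries, bars for group means and error bars for SD (n = 3), OX-labelled in red and WT in grey. The synthesis sum is 1.25 times WT with all 10 genes and 1.05 times WT without COCSUDRAFT_14487 and COCSUDRAFT_28274.

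Of the 6 sucrose and trehalose genes 1 (16.7%) rose, 1 (16.7%) fell and 4 did not pass, beside 15.6% higher and 8.98% lower of all tested genes. Sucrose synthase COCSUDRAFT_38455, which cleaves or makes sucrose with UDP, held 14.1, 12.3 and 10.1 CPM in OX-labelled libraries, against 5.43, 4.84 and 4.05 CPM in WT. It rested on 72, 55 and 40 counts in OX-labelled libraries and 27, 23 and 16 counts in WT, among the lowest of the set, and the groups stayed apart. The rise was 2.54-fold (95% interval 1.64 to 3.92, log2 fold change 1.34, SE 0.29, edgeR adjusted p = 0.00614). The neighbour median was 0.03, and the gene was called in all 14 other settings.

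Trehalose 6-phosphate phosphatase COCSUDRAFT_65033, which makes trehalose from its phosphate, held 70.4, 73.1 and 82.2 CPM in OX-labelled libraries, against 117, 103 and 130.2 CPM in WT. Every OX-labelled library lay below every WT library. It fell to 0.644 of the WT level (log2 fold change -0.64, SE 0.18, edgeR adjusted p = 0.0212). The call was lost without OX-labelled replicate 1 (edgeR adjusted p = 0.0686) and without WT replicates 1 or 3 (edgeR adjusted p = 0.0677 and 0.0782).

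The other trehalose genes were also lower on average, with overlapping groups. Trehalose-phosphate synthase COCSUDRAFT_42956 had a log2 fold change of -0.37 (edgeR adjusted p = 0.233), with -0.58 without OX-labelled replicate 3 (edgeR adjusted p = 0.0334) and -0.25 without OX-labelled replicate 1 (edgeR adjusted p = 0.489). Trehalase COCSUDRAFT_37140, which splits trehalose into glucose, held 21.2, 15.2 and 12.1 CPM in OX-labelled libraries and 22.1, 20.01 and 30.1 CPM in WT (edgeR adjusted p = 0.139).

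Sucrose-phosphatase COCSUDRAFT_15248, the last step of sucrose synthesis, held 105, 108 and 82.2 CPM in OX-labelled libraries and 53.7, 75.2 and 83.4 CPM in WT. The groups overlapped through OX-labelled replicate 3, and the log2 fold change of 0.48 (edgeR adjusted p = 0.111) was 0.59 without that library (edgeR adjusted p = 0.0246). Without WT replicate 1, the lowest library, it was 0.28 (edgeR adjusted p = 0.439). Sucrose phosphorylase COCSUDRAFT_57018 held 63.2, 148 and 61.3 CPM in OX-labelled libraries and 88.5, 78.8 and 95.3 CPM in WT. Only OX-labelled replicate 2 exceeded WT, and the log2 fold change of 0.06 was -0.49 without it.

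Among the 5 genes with the fold-family name 2 (40%) rose and 0 fell, beside 15.6% higher and 8.98% lower of all tested genes. COCSUDRAFT_66497 held 73.7, 59.0 and 92.8 CPM in OX-labelled libraries, against 52.1, 40.01 and 42.5 CPM in WT (log2 fold change 0.74, SE 0.21, edgeR adjusted p = 0.024). The call was lost without OX-labelled replicate 1 (edgeR adjusted p = 0.0602) and without WT replicates 1, 2 or 3 (edgeR adjusted p = 0.0558, 0.118 and 0.104). COCSUDRAFT_67635 held 42.0, 40.8 and 43.2 CPM in OX-labelled libraries, against 20.1, 25.7 and 34.4 CPM in WT (log2 fold change 0.66, SE 0.22, edgeR adjusted p = 0.0495). Its separation rested on a narrow OX-labelled group, and the edgeR call was lost in 8 of 14 other settings, among them without OX-labelled replicates 1 or 2 (adjusted p = 0.109 and 0.0685) and without WT replicates 1 or 2 (adjusted p = 0.236 and 0.163).

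The most abundant gene of that name, COCSUDRAFT_66757, held 239, 227 and 127 CPM in OX-labelled libraries and 290.0, 299 and 314 CPM in WT. OX-labelled replicate 3 was far below the other libraries. The log2 fold change of -0.61 did not pass in edgeR (adjusted p = 0.0715), but passed in the DESeq2 Wald test (adjusted p = 0.0442) and with library size only (edgeR adjusted p = 0.0359). COCSUDRAFT_3789, listed as a fragment, held 26 to 40 counts in OX-labelled libraries and 30 to 85 in WT. Its log2 fold change was -0.87 (SE 0.40, edgeR adjusted p = 0.134), and it passed without WT replicate 2 (log2 fold change -1.22, edgeR adjusted p = 0.0465). Without WT replicate 3, its highest library, the log2 fold change was -0.31 (edgeR adjusted p = 0.576). COCSUDRAFT_18860 had a log2 fold change of 0.03 and overlapping groups.

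Among the 7 genes of other roles, GDP-mannose pyrophosphorylase COCSUDRAFT_26874, which makes the mannose donor for glycans and cell walls, held 310.1, 248 and 279.8 CPM in OX-labelled libraries, against 142, 173 and 119 CPM in WT. The groups were well apart. It rose 1.93-fold (log2 fold change 0.95, SE 0.19, edgeR adjusted p = 0.00446), with a neighbour median of 0.31 and a call in all 14 other settings. UTP-glucose-1-phosphate uridylyltransferase COCSUDRAFT_53837, which makes UDP-glucose, held 155, 163 and 148 CPM in OX-labelled libraries and 165, 188 and 192 CPM in WT, without passing (log2 fold change -0.23, edgeR adjusted p = 0.346). Nicotinate-nucleotide pyrophosphorylase COCSUDRAFT_20295 had a log2 fold change of -0.51 (edgeR adjusted p = 0.121), which passed without OX-labelled replicate 2 (-0.72, edgeR adjusted p = 0.0441) and was -0.35 without OX-labelled replicate 3 (edgeR adjusted p = 0.213). Thiamine-phosphate pyrophosphorylase COCSUDRAFT_2352 had -0.36, and UDP-sugar and UMP pyrophosphorylases 0.20 and -0.01.

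Of 11 further genes of hexose phosphate and UDP-glucose metabolism that the rule leaves out, 3 rose, 0 fell and 8 did not pass, with a median log2 fold change of -0.02. These were 27.3% higher and 0% lower, beside 15.6% and 8.98% of all tested genes. At an unadjusted p of 0.05 in edgeR 4 were higher and 1 lower, and DESeq2 called 3 higher and 1 lower, limma-voom 3 and 0. Glucokinase COCSUDRAFT_32768, which phosphorylates glucose, held 185, 193 and 173 CPM in OX-labelled libraries, against 49.1, 48.9 and 44.8 CPM in WT (log2 fold change 1.95, SE 0.17, edgeR adjusted p = 3.42e-05). It lies 4 tested genes from adenylyltransferase COCSUDRAFT_28274 in the raised stretch, with a neighbour median of 1.20, which it exceeded by 0.74 on the log2 scale.

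The beta subunit of pyrophosphate-dependent phosphofructokinase, COCSUDRAFT_34877, a glycolytic enzyme, held 42.4, 26.9 and 23.1 CPM in OX-labelled libraries, against 10.9, 19.8 and 18.5 CPM in WT (log2 fold change 0.92, edgeR adjusted p = 0.0383). A predicted UDP-galactose/UDP-glucose transporter, COCSUDRAFT_34871, held 32.0, 29.4 and 36.5 CPM in OX-labelled libraries, against 15.3, 20.2 and 22.0 CPM in WT (log2 fold change 0.77, edgeR adjusted p = 0.0236). Both calls were lost without OX-labelled replicate 1 or any 1 of the WT replicates (edgeR adjusted p from 0.0533 to 0.183). That of COCSUDRAFT_34877 was also lost with library size only as scaling (log2 fold change 0.84, edgeR adjusted p = 0.0598). Phosphoglucomutase COCSUDRAFT_30193, which converts glucose 1-phosphate and glucose 6-phosphate into each other, held 318, 343 and 345 CPM in OX-labelled libraries and 457, 472 and 436 CPM in WT, separated groups that did not pass (log2 fold change -0.44, SE 0.16, edgeR adjusted p = 0.0695). The list also holds a selenide, water dikinase by its name pattern, a selenium enzyme, with a log2 fold change of -0.13.

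The rule also misses 14 genes whose names point to glucan enzymes or starch-binding domains in other words, a list drawn up after the files had been opened. Of these 0 passed in edgeR, where 24.6% of all tested genes were called. The 14 genes had 1 higher and 1 lower at an unadjusted p of 0.05 in edgeR, 1 higher in DESeq2 and 0 in limma-voom. They include amylomaltase COCSUDRAFT_28856, a second 4-alpha-glucanotransferase, with a log2 fold change of 0.03, and the alpha-amylase-type 1,4-alpha-D-glucan glucanohydrolase COCSUDRAFT_47893, at 224 ± 6.87 CPM in OX-labelled libraries and 221 ± 13.02 CPM in WT (SD, n = 3). The CBM20 gene COCSUDRAFT_47771, whose domain binds starch, had the largest fold change in size of the list (log2 fold change 0.74, SE 0.26, edgeR adjusted p = 0.0565).

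Of the 28 genes of the set that did not pass, 15 had a log2 fold change above 0 and 13 below, and 9 (32.1%) had groups that did not overlap, where 24.8% of the 6468 tested genes not called did not overlap. For 23 of the 28 genes the 95% interval of the log2 fold change lay within -1 and 1, so that a 2-fold change in either direction was outside it.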

How the data were processed

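Trizol-extracted total RNA was made into directional libraries, per the labels' protocols. FastQC, Trim Galore, HISAT and HTSeq appear in the submitters' processing notes, with no version. The sources used here give no genome build, strand setting or treatment of multi-mapping reads, so overlapping and antisense genes may share counts. The authors deposited 1 table of raw counts per library, covering 9490 genes. Every locus tag matched the RefSeq table of assembly GCF_000258705.1, which supplied gene order and gene span (introns included).

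Of these, 8575 genes passed filterByExpr and entered edgeR 4.0.16 (R 4.3.3) with TMM scaling and its robust two-sided quasi-likelihood test. P-values were adjusted over all tested genes by Benjamini-Hochberg, at a threshold of 0.05. The SE was taken as the size of the log2 fold change divided by the root of F, and 95% intervals come from it without adjustment for the number of genes. CPM use effective library sizes. The biological coefficient of variation was 19.8%. Each pair of libraries differed by more than sampling noise (chi-square at least 7.09 per degree of freedom). Exact permutation over 3 libraries a group has 0.1 as its lowest p, so it was left out. The floor of 3 counts covers counting error only.

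Genes, roles and lists were chosen with earlier results of these data known. Named genes were all called genes of the set, for each role the 2 with the lowest p that did not pass and the 2 with the highest level per kilobase, and the related genes that passed. All other genes named were added with their values in view. The alternatives tried were other scalings and filters, DESeq2 1.42.0, limma-voom (limma 3.58.1), a replicate block, a threshold of 0.01 and each library left out. The scripts were tested on simulated data.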

Additional observations from a re-analysis of the deposited data

How the results depend on the processing

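Called genes of the set numbered 8 higher and 2 lower. At an adjusted p under 0.01 they were 4 and 0, with 0 higher and 0 lower breakdown genes, 1 higher related gene, and 760 higher and 206 lower over all genes. The DESeq2 Wald test gave 2 higher breakdown genes and 1 lower related gene, and library size only 2 higher and 1 lower related genes, where edgeR with TMM gave 3 and 0. Leaving out each library gave 4 to 9 higher and 0 to 4 lower genes of the set, 0 to 2 higher and 0 to 1 lower breakdown genes, 2 higher and 0 to 1 lower synthesis genes, 1 to 3 higher and 0 to 2 lower related genes, and 737 to 1627 higher and 313 to 1232 lower over all genes. Chosen after the data were seen, the 14 added names left 8 and 2, leaving out fold-family and other roles gave 5 higher and 2 lower, and leaving out the 2 genes of the raised stretch gave 6 higher, with 0 higher synthesis genes (2 with them, in edgeR, DESeq2 and limma-voom; those genes were the calls). Same-numbered libraries deviated with correlations of -0.16, 0.15 and 0.06 for numbers 1 to 3, and not every library correlated best with its own number, so the numbers were not taken as pairs. With the replicate block 7 genes of the set were higher and 3 lower (COCSUDRAFT_25887 at an edgeR adjusted p of 0.053 and COCSUDRAFT_66757 at 0.0462 crossed the threshold), and 1297 higher and 801 lower over all genes.

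Single-gene log2 fold changes, with those of the 3 related genes that rose, kept direction and side of the threshold in 499 cases, lost the call in 44, gained one in 10 and turned in 21, none of which was called. The cause was not tested. Turned values with library size only were -0.0038 (COCSUDRAFT_14582), -0.025 (COCSUDRAFT_18860), -0.040 (COCSUDRAFT_35194) and -0.027 (COCSUDRAFT_57018), and without a filter -0.0083 (COCSUDRAFT_35194). With limma-voom they were -0.035 (COCSUDRAFT_18860) and -0.068 (COCSUDRAFT_57018), and with the replicate block -0.022 (COCSUDRAFT_18860) and -0.069 (COCSUDRAFT_57018). Over the left-out libraries the values ran from -0.15 to 0.16 (COCSUDRAFT_14582), -0.29 to 0.22 (COCSUDRAFT_18860), -0.16 to 0.12 (COCSUDRAFT_35194), -0.49 to 0.27 (COCSUDRAFT_57018), -0.12 to 0.089 (COCSUDRAFT_34114), -0.26 to 0.040 (COCSUDRAFT_26448) and -0.0087 to 0.16 (COCSUDRAFT_17342). Fits without a library hold 5 libraries in place of 6.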
